A study of Mus musculus with 6 samples.

Results

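The enzymes that write, copy and erase DNA methylation were examined in colonic crypts of a mouse model of Lynch syndrome after inhibition of EZH2. The genes were *Dnmt1*, *Uhrf1*, *Dnmt3a*, *Dnmt3b*, *Tet1*, *Tet2* and *Tet3*. They were taken by gene name, and all 7 were found among the 18049 genes of the crypt RNA-Seq table. Each had a row of its own and passed the filter on low values, so all 7 were among the 16670 genes tested.

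The crypts came from Lynch syndrome model mice on a C57BL/6J background. In these mice a *Villin-Cre* transgene restricts a floxed deletion to the intestinal epithelium, and a knocked-in humanized *Tgfbr2* carries a poly(A) repeat. Both groups carried all of these alleles and ate a Western-style diet from 8 weeks of age, and their age at collection was not given in the sources used here. GSK503, a small-molecule inhibitor of the histone methyltransferase EZH2, was injected biweekly into the tail vein of 3 mice at 200 μg/kg body weight over 9 weeks. The 3 control mice received 20% captisol in PBS, and every library came from a different mouse.

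In mammals, methyl groups sit mainly on cytosines of CpG dinucleotides. At each round of DNA replication the new strand is bare, UHRF1 binds the hemimethylated site, and DNMT1 copies the mark onto it. DNMT3A and DNMT3B place methyl groups on sites that had none, and the TET enzymes oxidize 5-methylcytosine to 5-hydroxymethylcytosine, a step toward its removal. The colonic epithelium renews itself from dividing cells in the lower crypt, and genes of maintenance methylation are expressed together with the DNA replication machinery in dividing cells. EZH2 methylates a histone, H3 at lysine 27, and is not itself a DNA methyltransferase. The comparison asked whether inhibiting it for 9 weeks changed the mRNA of the DNA methylation enzymes.

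None of the 7 genes passed the test. At an adjusted p below 0.05 (limma, Benjamini-Hochberg over all 16670 genes), 0 of 7 were called, where 0.642% of all genes tested were called. At an unadjusted p below 0.05 the counts were 0 of 7 and 13.3% of all genes. In each of the 7 genes the values of GSK503-treated and control mice overlapped, whereas 9.84% of all genes lay higher in every GSK503-treated mouse and 9.22% lay lower. The mean log2 level was lower after GSK503 in 5 genes and higher in 2, and scaling by library size alone made this 6 and 1, with *Uhrf1* changing sides. The median log2 fold change (log2FC) was -0.10 over the 7 genes and -0.01 over all genes. Of the fits with a mouse left out, only the one without the third control mouse turned this direction, though others moved the median. Without the third control mouse 3 genes were lower and 4 higher, with a median of 0.0026, and without the third GSK503 mouse the median was -0.037. Without the first control mouse 4 were lower and 3 higher, and without the second control mouse the median was -0.19. It was -0.12 without the first GSK503 mouse and -0.07 without the second.

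Certain properties of the libraries bear on every comparison. The estimated totals were 108162170 to 129100695 counts in control mice and 124491533 to 135082723 in GSK503-treated mice. The X-inactivation transcript *Xist* had 0.419 to 0.936 in control mice and 825 to 1236 in GSK503-treated mice, and the Y-linked gene *Ddx3y* had 61.4 to 65.2 in control mice and at most 0.0915 after GSK503. Sex and treatment therefore cannot be told apart here, although the study's methods state that both sexes were used. None of the 7 genes is on the X or Y chromosome. All 7 epithelial markers had means above those of controls (4 of 7 with library size alone), their summed value being 11996 to 13482 in control and 12990 to 15124 in GSK503-treated mice, with 0 called. The third GSK503 library stood apart in its content of other cells. Its summed level of 8 smooth muscle markers was 127, against 5.11 and 4.76 in the other GSK503 libraries and 22.7 to 94.1 in controls. Its 7 B cell and plasma cell markers summed to 60.6, against 2.19 and 1.298 in the other GSK503 libraries and 21.1 to 66.9 in controls. In bulk crypts, fewer cells of a type and less RNA per cell cannot be told apart. The part of these differences in the values below was not tested beyond the fits named.

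Levels are given as the deposited TMM-scaled CPM, in which each gene's estimated count is divided by the scaled size of its library. Levels of different genes were ranked only after division by merged exon length. Differences between genes within a library, given further below, were not divided by length and serve only to compare the groups. Per kilobase, the copying machinery stood highest and *Tet1* lowest. *Uhrf1* had 21.8 ± 3.78 CPM per kb in control mice and 23.0 ± 3.48 in GSK503-treated mice (SD, n = 3 each). *Dnmt1* followed with 20.0 ± 1.82 and 18.3 ± 2.28. These neighbours did not separate, since *Uhrf1* exceeded *Dnmt1* in 5 of 6 libraries, with a ratio of 0.964 to 1.36. *Tet3* came next with 9.26 ± 1.62 CPM per kb in control mice and 8.58 ± 1.04 after GSK503. *Tet2* had 4.32 ± 0.726 and 3.91 ± 0.0496, and *Dnmt3a* had 3.24 ± 0.302 and 3.18 ± 0.126. The order of these 3 genes was the same in 6 of 6 libraries, but *Tet2* exceeded *Dnmt3a* by no more than a ratio of 1.504, and by as little as 1.17. *Dnmt3b* was far lower at 0.463 ± 0.0805 CPM per kb in control mice and 0.562 ± 0.111 after GSK503. *Tet1* closed the order at 0.104 ± 0.0219 and 0.0721 ± 0.0192. Apart from the *Uhrf1* and *Dnmt1* pair, every neighbour in this order kept its place in 6 of 6 libraries. The exon lengths take in every annotated exon, so a gene expressed from a shorter transcript is understated on this scale.

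**Figure D1:**
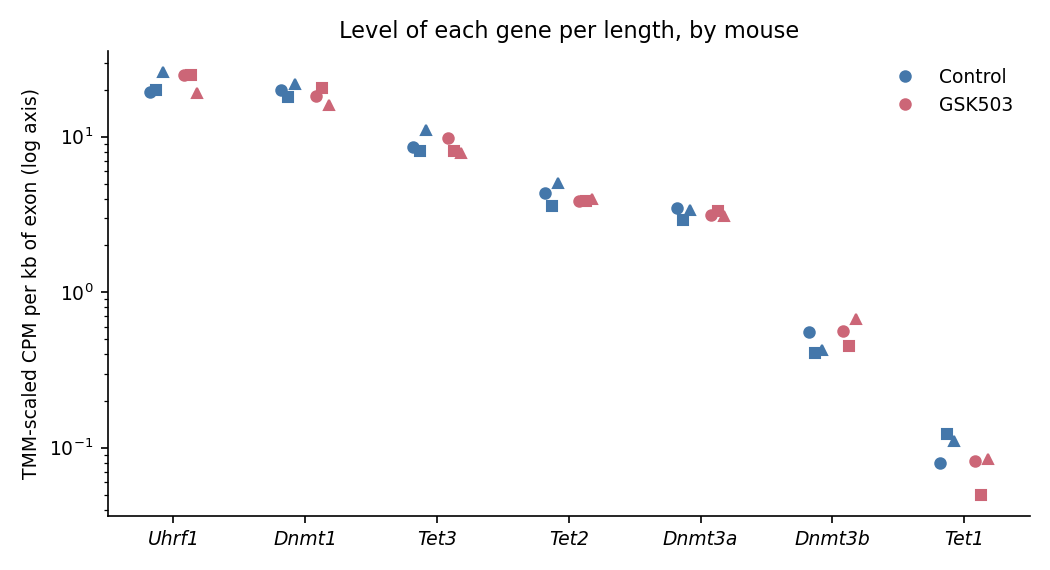
Level of each gene per kilobase of merged exon (TMM-scaled CPM per kb, log axis) in every mouse, with control mice in blue, GSK503-treated mice in red, and mice 1, 2 and 3 of a group as circle, square and triangle. Levels run from 19.01 to 26.1 for *Uhrf1* down to 0.04999 to 0.122 for *Tet1*, and the groups overlap in every gene.

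Within the families, the balance was lopsided in every mouse. *Tet3* made up 65.9% to 71.2% of the summed per-kilobase level of the 3 *Tet* genes, *Tet2* 28.2% to 33.4% and *Tet1* 0.414% to 1.03%. *Dnmt3b* made up 11.2% to 17.9% of the summed level of the 2 de novo enzymes. The range of the *Tet3* share spanned 66.1% to 68.6% in control mice and 65.9% to 71.2% in GSK503-treated mice, so the groups overlapped.

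*Dnmt1*, the maintenance methyltransferase, lies on chr9:20817945-20871184 (GRCm39, minus strand). Its values were 171, 154 and 185 CPM in control mice and 156, 174 and 136 in those given GSK503. The second GSK503 mouse lay above 2 of the 3 control mice, and the third was the lowest of all 6. The means were 170 ± 15.4 and 155 ± 19.4 (SD, n = 3), a log2FC of -0.13 ± 0.10 (SE) with an adjusted p of 0.636 (limma). The 95% interval of the change ran from -22.4% to 7.52%. The log2FC was -0.037 without the third GSK503 mouse, -0.068 without the third control mouse, -0.22 without the second GSK503 mouse and -0.20 without the second control mouse. It was -0.25 with library size alone and -0.24 with the smooth muscle level as a covariate.

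*Uhrf1*, the reader of hemimethylated CpG that brings DNMT1 to the replication fork, lies on chr17:56610275-56630489 (plus strand). It had 102, 105 and 138 CPM in control mice and 132, 133 and 100 in those given GSK503. The third control mouse was the highest and the third GSK503 mouse the lowest, so each group held both high and low values. The log2FC was 0.08 ± 0.14 (SE) with an adjusted p of 0.848 (limma), and the interval ran from -14.7% to 31.7%. The sign of this small difference depended on the scaling and on the covariate in the fit. The log2FC was -0.031 with library size alone and -0.033 with the smooth muscle level as a covariate, and 0.22 without the third GSK503 mouse.

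Promoter sequences of both maintenance genes are shown because the only matches to an E2F-type motif among the 7 genes were found there. E2F factors drive genes of DNA replication. The sequences are from RefSeq (GRCm38.p6), as windows of 300 bases from 250 before to 50 after each annotated start, and all 7 genes matched by symbol, with 12 promoters in all. The motifs searched on both strands were TTTCGCGC, TTTGGCGC, TTTCCCGC and TTTGCCGC. A match was found in 744 of 32851 promoters, or 2.26%, and in 2 of the 12 promoters here. The promoter of the third annotated *Dnmt1* start held 2 matches, and that of the second *Uhrf1* start held 1. The sequences below run 5′ to 3′ on the strand of the gene, with the match in capitals.
Dnmt1, chr9:20952809-20952868 (minus strand), match beginning 219 bases before the start and read as the reverse complement of TTTCGCGC: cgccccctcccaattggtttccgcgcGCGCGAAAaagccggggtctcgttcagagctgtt
Dnmt1, chr9:20952574-20952616 (minus strand), match beginning 33 bases after the start: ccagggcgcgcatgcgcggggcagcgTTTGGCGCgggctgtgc
Uhrf1, chr17:56304102-56304161 (plus strand), match beginning 185 bases before the start: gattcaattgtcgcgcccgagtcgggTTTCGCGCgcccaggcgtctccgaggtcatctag
A match describes letters in a window and not a bound site. The same promoters were rich in CpG, the substrate of the enzymes themselves, with 33 CpG each, against a median of 7 over all promoters. Each motif itself holds a CpG, and the share of matches among promoters of similar CpG content is not given here. Among the other genes the promoter with most CpG held 57 for *Tet2*, 47 for *Dnmt3a*, 30 for *Dnmt3b*, 22 for *Tet3* and 17 for *Tet1*.

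The maintenance genes were set against dividing cells by a list of 15 proliferation genes. The mean log2 level of the list was 6.26, 6.19 and 6.38 in control mice and 6.32, 6.33 and 5.99 in those given GSK503, so the third GSK503 mouse was lowest here as it was for *Dnmt1* and *Uhrf1*. Relative to this mean, *Dnmt1* differed between groups by -0.06 on the log2 scale (exact two-sided permutation p = 0.3). *Uhrf1* differed by 0.15 relative to it (exact permutation p = 0.4). Neither difference passed the test, and with 3 mice against 3 the smallest p possible is 0.1. The within-library ratio of *Uhrf1* to *Dnmt1* was likewise compared, since it does not depend on scaling between libraries. On the log2 scale *Uhrf1* minus *Dnmt1* was -0.57 ± 0.16 in controls and -0.36 ± 0.10 after GSK503 (SD, n = 3), a difference of 0.21 (exact permutation p = 0.2). Exon length is not divided out of these values, so their sign does not rank *Uhrf1* against *Dnmt1*. Over the 5 within-library differences tested, adjusted p lay between 0.5 and 0.9 (exact permutation tests).

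**Figure D2:**
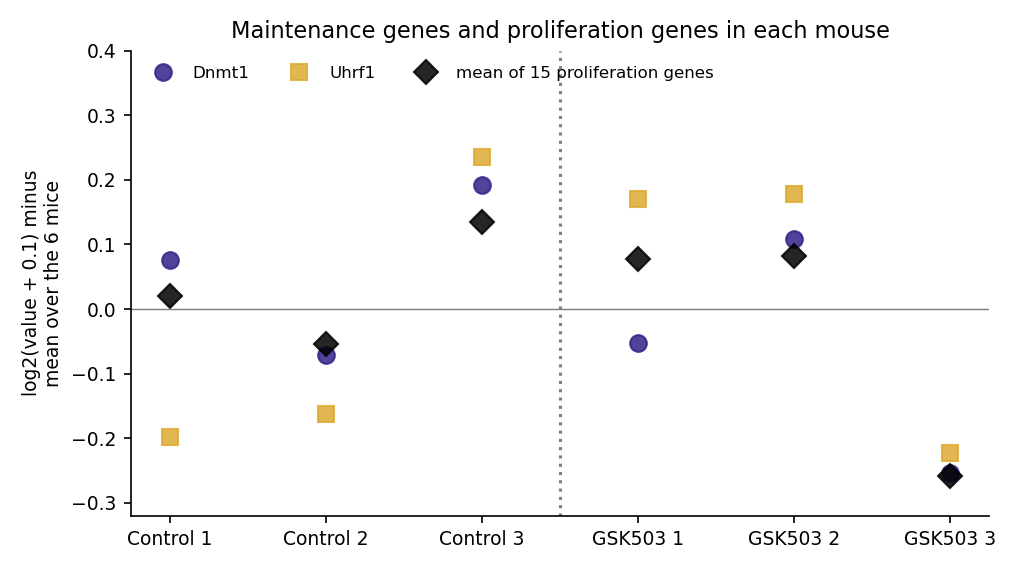
*Dnmt1*, *Uhrf1* and the mean of 15 proliferation genes in each mouse, as log2(value + 0.1) minus the mean over the 6 mice. The third control mouse is highest and the third GSK503 mouse lowest in all 3 measures.

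Of the proliferation list itself, 0 of 15 genes were called, and 1 with library size alone (*Mki67*, adjusted p = 0.0427, limma). Means were lower in 10 and higher in 5 (14 and 1 with library size alone, 15 and 0 with the smooth muscle level as a covariate), and without the third GSK503 mouse 5 were lower and 10 higher. *Mki67*, which encodes the proliferation antigen Ki-67, had 706, 646 and 768 CPM in control mice and 579, 559 and 477 after GSK503, with no overlap. Its log2FC was -0.39 with an adjusted p of 0.136 (limma). *Top2a*, the topoisomerase of dividing cells, also did not overlap between groups, with a log2FC of -0.17 and an adjusted p of 0.417 (limma). In all, 2 of the 15 genes lay lower in every treated mouse, against 9.22% of all genes, and 0 lay higher, against 9.84%.

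*Dnmt3a*, a de novo methyltransferase on chr12:3856007-3964443 (plus strand), was measured with the narrowest interval. Its values were 59.2, 49.4 and 57.1 CPM in control mice and 53.3, 56.6 and 52.6 in those given GSK503. All 3 treated mice lay inside the range of the controls. The log2FC was -0.02 ± 0.09 (SE), with an adjusted p of 0.941 (limma) and an interval of the change from -14.2% to 12.7%. Its sign turned to 0.028 without the first control mouse and to 0.0026 without the third.

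*Dnmt3b*, the other de novo enzyme, lies on chr2:153490861-153529650 (plus strand) and was weakly expressed. It had 3.44, 2.53 and 2.63 CPM in control mice and 3.50, 2.79 and 4.16 in those given GSK503. The highest value belonged to the third GSK503 mouse, and the first control mouse lay above the second treated mouse. The log2FC was 0.27 ± 0.23 (SE), with an adjusted p of 0.668 (limma) and an interval from -16.2% to 72.7%. It was 0.13 without the third GSK503 mouse, the library with most smooth muscle signal, and 0.35 with the smooth muscle level as a covariate. It was 0.41 without the second GSK503 mouse and 0.40 without the first control mouse, and 0.16 with library size alone. These values rest on 280 to 500 estimated counts per library, a counting error of 4.47% to 5.98%, while the coefficient of variation between mice was 17.4% in controls and 19.7% after GSK503. *Dnmt3b* minus *Dnmt3a* within a library differed by 0.29 on the log2 scale between groups (exact permutation p = 0.3).

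*Tet3*, the most abundant eraser, lies on chr6:83339355-83436066 (minus strand). It had 143, 135 and 186 CPM in control mice and 163, 136 and 131 in those given GSK503. The third control mouse was set apart above the other 2, and the first treated mouse exceeded both of those. The log2FC was -0.10 ± 0.13 (SE), with an adjusted p of 0.782 (limma) and an interval from -23.7% to 13.5%. Without the third control mouse the log2FC was 0.035.

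*Tet2*, on chr3:133169436-133250900 (minus strand), had 76.6, 63.8 and 89.5 CPM in control mice and 68.8, 69.0 and 70.4 in those given GSK503. The treated mice lay close together inside the wide range of the controls. The coefficient of variation was 16.8% in control mice and 1.27% in treated mice, a difference for which no test was run. The log2FC was -0.13 ± 0.11 (SE), with an adjusted p of 0.668 (limma) and an interval from -23.2% to 8.95%. It was -0.25 without the second control mouse (adjusted p = 0.318, limma) and -0.01 without the third. *Tet3* minus *Tet2* within a library differed between groups by 0.03 on the log2 scale (exact permutation p = 0.9).

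*Tet1*, on chr10:62640349-62744775 (minus strand), is the eraser best known from embryonic stem cells. It had 1.23, 1.89 and 1.70 CPM in control mice and 1.26, 0.773 and 1.31 in those given GSK503. The first control mouse was below 2 of the 3 treated mice, and the second treated mouse was the lowest. Its log2FC of -0.50 ± 0.31 (SE) had an adjusted p of 0.530 (limma), and the interval ran from -56.6% to 14.6%. Without the second GSK503 mouse the log2FC was -0.28, and without the first control mouse -0.67. With the smooth muscle level as a covariate it was -0.32. The values rest on 97 to 216 estimated counts per library. Counting error was 6.804% to 10.2%, less than the coefficient of variation of 21.0% in control and 26.6% in treated mice.

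**Figure D3:**
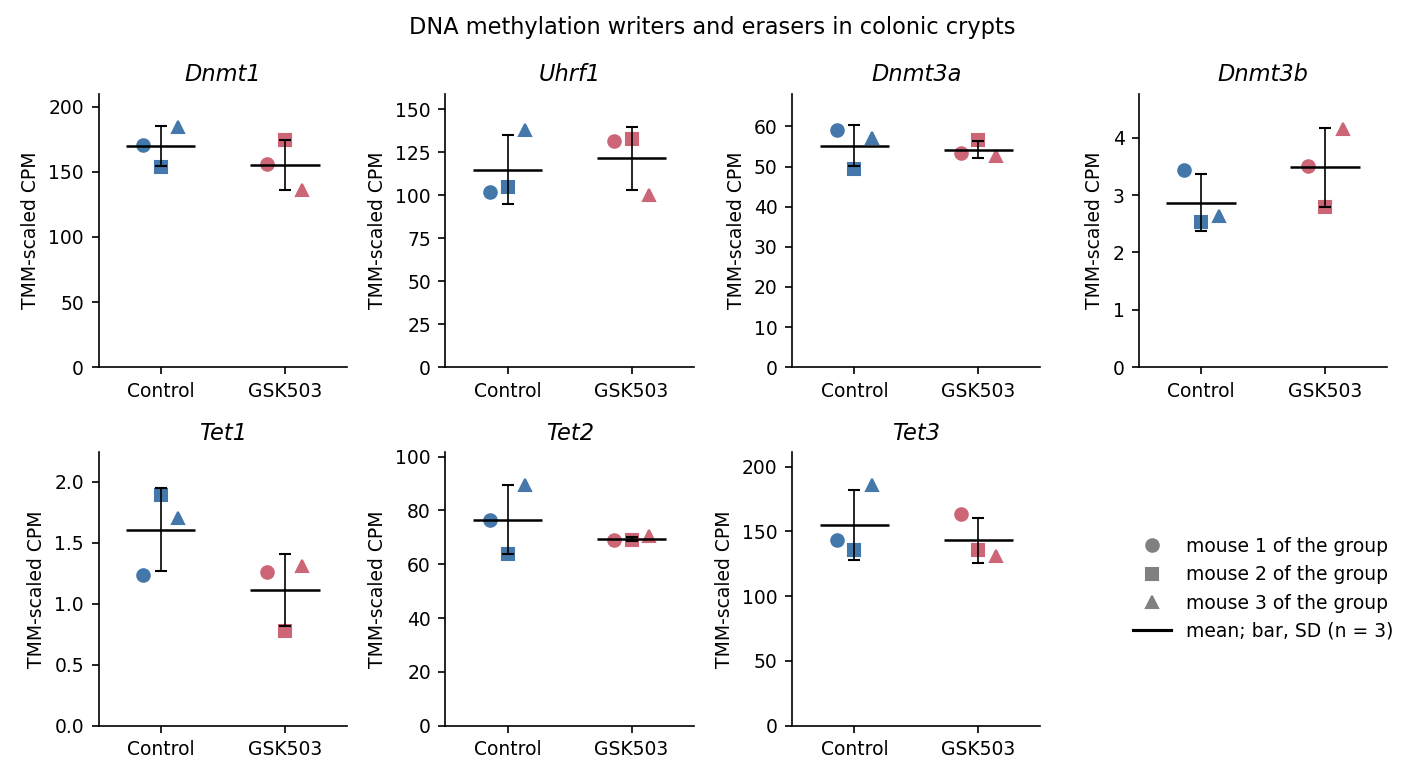
TMM-scaled CPM of the 7 genes in each mouse, control in blue and GSK503 in red, with the group mean as a line and the SD as a bar (n = 3). Every gene has at least 1 treated mouse inside the range of the control mice, for example *Dnmt1* at 174 against controls of 154 to 185.

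**Figure D4:**
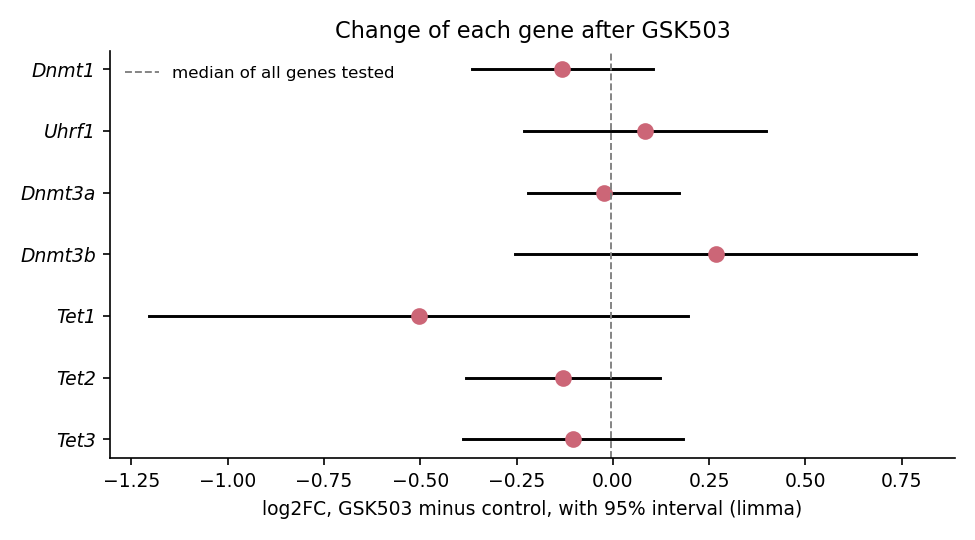
Log2FC of each gene, GSK503 minus control, with its 95% interval from limma, and the median of all genes tested (-0.01) as a dashed line. All 7 intervals include 0, and the interval is narrowest for *Dnmt3a* (-0.22 to 0.17) and widest for *Tet1* (-1.20 to 0.20).

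Likeness of pattern over the mice was measured as the root mean square difference of log2 values over the 6 libraries, after each gene's mean was subtracted. *Dnmt1* and *Uhrf1* stood at 0.15 from each other. Among 12806 genes with a mean of at least 1 CPM, the 3 most like *Dnmt1* were *Gclm* (0.02), *Mcm6* (0.04) and *Smc4* (0.04). Those most like *Uhrf1* were *Gm21992* (0.04), *Pold1* (0.05) and *Pclaf* (0.05). *Mrm1*, *Zfp780b* and *Cnot9* were nearest to *Dnmt3a* (0.02 each), *Syne1*, *Arhgap17* and *Zfyve26* to *Tet2* (0.03 to 0.04), and *Lonrf3*, *Zmat3* and *Sf3a2* to *Tet3* (0.03 to 0.04). The nearest to *Dnmt3b* were *Kbtbd6*, *Adcy5* and *Acbd4* (0.08 to 0.10), and to *Tet1* they were *Gm18030*, *Dctd* and *Gnao1* (0.09 to 0.12). The distance grows with a gene's own spread between mice, so it is smaller for steady genes and is not comparable between the 7 genes. All of these likenesses are over the same 6 libraries and are descriptions.

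The drug's target was read as a reference point. *Ezh2* had 46.7, 37.4 and 46.5 CPM in control mice and 36.6, 35.2 and 36.3 in those given GSK503. No treated mouse reached the lowest control, which was so for 9.22% of all genes. The log2FC was -0.27 ± 0.10 (SE), with an adjusted p of 0.291 (limma).

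The rest of the pathway was read from 6 lists with 72 tested genes, of which 1 was called higher and 0 lower. Over all genes tested, 0.642% were called in either direction. Proteins that work with the methyltransferases had 9 lower and 2 higher means among 11 tested genes (11 and 0 with library size alone, 7 and 4 without the third GSK503 mouse), and 0 were called. Their median log2FC was -0.10. *Cdca7l*, a relative of the HELLS activator *Cdca7*, had 28.7, 29.9 and 31.4 CPM in control mice and 23.5, 22.9 and 23.6 after GSK503. The groups were well separated, with a log2FC of -0.36 ± 0.08 (SE), but the adjusted p was 0.0974 (limma) and passed the threshold only with library size alone (0.0378). *Setd2*, which places the H3K36 trimethylation that DNMT3B reads, had 171, 157 and 183 CPM in control mice and 156, 142 and 144 after GSK503, also without overlap. Its log2FC was -0.20 with an adjusted p of 0.317 (limma). In all, 4 of the 11 partners lay lower in every treated mouse, against 9.22% of all genes, and 1 lay higher, against 9.84%. Besides *Cdca7l* and *Setd2* these were *Usp7* and *Nsd1* on the lower side and *Ehmt2* on the higher, the last 3 named after their values were seen.

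Active demethylation and base excision repair, which removes oxidized cytosines, had 17 tested genes with 7 higher and 10 lower means (2 and 15 with library size alone), and 0 were called. *Cxxc5*, a CXXC-domain protein that binds CpG, had 5.81, 7.36 and 6.23 CPM in control mice and 8.75, 11.0 and 9.28 after GSK503. Its log2FC was 0.57 with an adjusted p of 0.144 (limma). *Idh1*, which makes the 2-oxoglutarate that TET enzymes consume, had a log2FC of -0.18 and an adjusted p of 0.341 (limma). Of 10 genes of the methyl-CpG reader families 0 were called (4 higher and 6 lower means, or 2 and 8 with library size alone), and the smallest p belonged to *Mbd5*, with a log2FC of -0.27 and an adjusted p of 0.553 (limma). Of 16 genes of methyl donor metabolism, which supplies S-adenosylmethionine, 0 were called as well. *Ahcy*, which clears the product S-adenosylhomocysteine, had a log2FC of 0.19 (adjusted p = 0.508, limma), and *Bhmt* was at 0.0837 to 0.406 CPM in all mice.

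Genes under the control of DNA methylation were read last. Imprinted genes, expressed from 1 parental allele by differential methylation, had 16 tested members, 10 with higher and 6 with lower means (9 and 7 with library size alone), and a median log2FC of 0.16. Without the third GSK503 mouse 7 were higher and 8 lower, and the median was -0.06. With only genes of at least 1 CPM in at least 3 mice, 11 were tested. Of these, 6 were higher and 5 lower, and the median was 0.018. *Igf2r*, the receptor that clears IGF2 and sorts lysosomal enzymes, was the single call. It had 384, 345 and 322 CPM in control mice and 494, 613 and 583 in those given GSK503. Every treated mouse was above every control mouse, which was so for 9.84% of all genes. *Igf2r* rose by a log2FC of 0.68 ± 0.10 (SE), with an adjusted p of 0.0229 (limma). The call was lost without the second control mouse (adjusted p = 0.0891, limma), the third control mouse (0.0661) or the second GSK503 mouse (0.152). It was also lost with no intensity trend (0.214), with the replicate block (0.108) and with the smooth muscle level as a covariate (0.0536). The log2FC stayed between 0.57 and 0.77 over 19 alternatives. The imprinted antisense RNA *Airn* lies across part of *Igf2r*, and whether reads were counted by strand is not stated in the sources used here.

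Germline genes that are held silent by promoter methylation had 14 members on the list. Of these, 2 were tested, 1 did not pass the filter and the others had no row under their listed names. *Tdrd1* had 0.936, 1.01 and 0.685 CPM in control mice and 1.64, 2.23 and 1.49 after GSK503. It lay higher in every treated mouse, as did 9.84% of all genes, with a log2FC of 0.94 and an adjusted p of 0.204 (limma). *Dazl* was at most 0.233 CPM in any mouse.

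**Figure D5:**
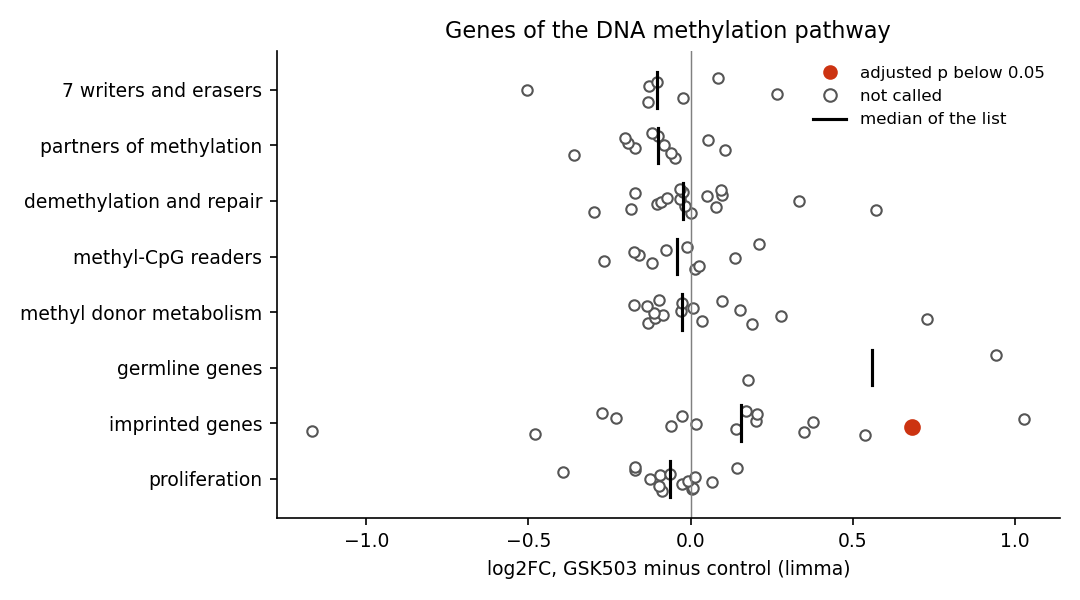
Log2FC of each tested gene, GSK503 minus control, in the 7 writers and erasers, the 6 related lists and the proliferation list, with the median of each list as a bar and the called gene filled. Only *Igf2r*, at 0.68 among the imprinted genes, is called, and the medians lie between -0.10 and 0.16 except for the 2 germline genes (0.56).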

How the data were processed

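Total RNA of isolated colonic crypts was sequenced as paired-end 76 bp reads with a stranded total RNA kit. The authors used STAR for alignment to GRCm39, RSEM for gene counts and edgeR for TMM scaling, and then deposited the table, so its signal is a TMM-scaled CPM, and a count-based fit was only an alternative. The estimated totals were recovered from the step that 1 count makes in each library. Between 85.6% and 87.4% of values under 100 counts were whole multiples of it within 0.02 counts, and 3 counts equal 0.0228 to 0.0271 CPM. Such limits cover counting error only.

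Groups came from the sample labels. limma (version 3.58.1, R 4.3.3) was fitted to log2(value + 0.1) with an intensity trend, over genes that reached 0.1 in 3 or more mice, and 1379 genes did not. Fold changes are on this scale, which understates those of low genes. Exon lengths and positions are from GENCODE (GRCm39), which matched 95.4% of symbols. Genes such as *Dnmt3aos*, *Dnmt3bos* and *Bola3* overlap *Dnmt3a*, *Dnmt3b* and *Tet3*, and use of strand in counting is not stated. All 7 genes are named. From each related list the called genes are named, up to 4, or otherwise up to 2 with the smallest p, and for each of the 7 the 3 genes of most like pattern. The genes and lists were chosen with earlier results of these data known. Alternatives were other scalings, pseudocounts, filters and variance models, limma-voom on the recovered counts, a replicate block, leaving out X and Y genes, a smooth muscle covariate, and leaving out each mouse. The fits were tested on simulated data. Other data types of the study were not used here, and some items are not reported here.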

Additional observations from a re-analysis of the deposited data

How the results depend on the processing

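Under 19 alternatives, 0 of the 7 genes were called in each. The adjusted p (limma) ranged from 0.200 to 0.899 for *Dnmt1*, 0.463 to 0.993 for *Uhrf1*, 0.392 to 0.9987 for *Dnmt3a*, 0.556 to 0.845 for *Dnmt3b*, 0.312 to 0.868 for *Tet1*, 0.263 to 0.983 for *Tet2* and 0.363 to 0.939 for *Tet3*. An unadjusted p below 0.05 (limma) was reached by *Dnmt1* with library size alone (0.0321) and with the smooth muscle covariate (0.0349), and by *Tet2* without the second control mouse (0.0247). The log2FC of *Uhrf1* reversed to -0.031 with library size alone and to -0.033 with the covariate. Leaving out 1 mouse at a time gave -0.10 to 0.028 for *Dnmt3a*, -0.20 to 0.035 for *Tet3*, -0.078 to 0.097 for *Tet3* minus *Tet2* and -0.27 to 0.56 for *Dazl*, which was lower without the first control mouse (-0.27) or the third GSK503 mouse (-0.15). Of the related genes, 1 was called, against 2 with library size alone and 0 with no intensity trend, the replicate block or the covariate, and 0 to 1 with a mouse left out. Over all genes, 83 were called higher and 24 lower. These counts were 83 and 178 with library size alone, which moved the median log2FC of all genes to -0.12, 23 and 10 with the replicate block, 9 and 7 with no intensity trend, and 116 and 100 without the third GSK503 mouse. Deviations of same-numbered mice from their group means correlated at 0.03, -0.13 and -0.12 across genes, and those of differently numbered mice at -0.17 to 0.22. Deviations from means of 3 mice cannot decide whether replicate numbers pair the mice. With 3 mice a group, the intervals given for each gene limit what these data can say.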

Other observations

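Among other epithelial lineages of the same crypts, goblet and enteroendocrine markers gave calls where the DNA methylation genes gave none. All 8 goblet cell markers lay higher in every GSK503-treated mouse, as did 9.84% of all genes, with summed values of 10276 to 18822 CPM in control mice and 32535 to 51749 after GSK503. The 4 called higher (limma, which called 0.642% of all genes in either direction) were *Tff3*, *Spdef*, *Clca1* and *Ang4*. All 8 enteroendocrine markers had lower means, with sums of 206 to 258 CPM in control mice and 129 to 166 after GSK503, and the 3 called lower (limma) were *Chga*, *Chgb* and *Gcg*. These calls depended on the fit and on single mice. With no intensity trend 0 markers of either list were called, and with the replicate block or the smooth muscle covariate 1 of each. With each mouse left out in turn, 0 to 3 goblet markers were called, with 0 without the third control or the second GSK503 mouse, and 0 to 1 enteroendocrine markers, with 0 without the second control or the first GSK503 mouse. All 16 markers kept the direction of their means in each of these fits. Of 6 crypt stem cell markers 0 were called, with sums of 153 to 165 and 135 to 172 CPM. Likewise, 0 were called of 7 absorptive colonocyte markers. Of 5 tested tuft cell markers 0 were called, but all 5 had higher means, with a median log2FC of 0.73. Among them, 3 lay higher in every GSK503-treated mouse, against 9.84% of all genes, and the smallest adjusted p was 0.0522 (limma). With upper-quartile scaling, a robust variance model or the first control mouse left out, 1 tuft marker was called. Without the third GSK503 mouse 4 were higher and 1 lower. Sex and treatment cannot be told apart in these values either.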
